A study of Mus musculus with 96 samples.

Results

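The clones described here are LSK-derived leukaemia clones that were neither rare nor common in the cell pool before transplantation and that stayed small in every recipient. They are the GFP barcodes that held at least 100 and less than 1000 CPM (reads per 1000000 reads of a library) of the LSK pool and less than 10000 CPM in each of 29 bone marrow and spleen libraries of mice that received LSK cells. The clones were thus chosen by their measured pool values and by an upper limit on their measured mouse values, and neither is a finding. Of the 1331 GFP barcodes listed (4675 barcodes of all colours), 1209 had reads in the LSK pool, 469 lay in that pool range and 459 also stayed under the ceiling. All 459 were listed in both deposited tables. The last barcodes inside the pool range held 100.5 CPM (GFP_Barcode_74363) and 100.6 CPM (GFP_Barcode_32748), against 99.8 CPM in GFP_Barcode_22453 and GFP_Barcode_41807 just outside. At the upper end GFP_Barcode_26059 held 994.7 CPM and GFP_Barcode_16252 held 992.5 CPM, against 1009 CPM in GFP_Barcode_19852 and 1016 CPM in GFP_Barcode_1295. Closest under the ceiling were GFP_Barcode_15061 and GFP_Barcode_6591, with a highest library of 8121 and 7964 CPM. Just past it were GFP_Barcode_9096 at 10754 CPM and GFP_Barcode_43817 at 15532 CPM.

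A SPLINTR barcode is a DNA tag that a virus inserts into the genome of a founder cell and that all of its descendants inherit, so the reads of a barcode measure the size of that cell's progeny. MLL-AF9 is a fusion oncogene that turns blood progenitors into acute myeloid leukaemia cells. When a barcoded pool is transplanted, most clones fail to expand and a few take over the host, and the clones that survive at low levels are the remainder seen below the dominant ones.

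Per the labels, LSK cells (Lin-, c-Kit+, Sca-1+, the immature population that includes stem cells) and GMP cells (granulocyte-monocyte progenitors) were sorted from the bone marrow of female C57BL/6 donors of 6 to 8 weeks. Both were transduced with an MLL-AF9 retrovirus and a barcode library, grown in IL-3, IL-6 and SCF, and transplanted alone or mixed, so that all groups carry MLL-AF9 and none is untransformed. Recipients of LSK cells alone were 3 Ptprca mice (mice 1 to 3) and 4 NSG mice (9 to 12), and recipients of the mixture were 4 Ptprca mice (17 to 20) and 4 NSG mice (21 to 24). Ptprca is an immunocompetent congenic strain, whereas NSG mice lack B, T and NK cells. The recipients' age and sex are not given in the sources used here. Another 4 Ptprca and 4 NSG mice received GMP cells alone and serve here as the background for GFP barcodes. Every mouse gave bone marrow and spleen except mouse 24, which has a spleen library only.

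Levels are given as GFP CPM, the deposited CPM rescaled so that the GFP reads of a library sum to 1000000. A mouse's value is the mean of its tissues. The rescaling allows mixed recipients, whose reads are shared with GMP clones, to be set beside recipients of LSK cells alone. Because the ceiling was applied to deposited CPM, a clone of a mixed recipient can exceed 10000 GFP CPM. Libraries rested on 4257581 to 8499553 reads, of which 1863456 to 8497406 were GFP reads. A barcode at 0 may hold up to 3 reads, which is 0.353 to 1.61 GFP CPM in the mouse libraries, counting error only. The 16 libraries of mice that never received LSK cells hold too few GFP reads for this scale, so their background is given as deposited CPM, per 1000000 reads of any colour. In these libraries 0 to 47 of the 459 barcodes (median 6) had a read, and none reached 100 deposited CPM. There the highest single value was 32.3 deposited CPM, of GFP_Barcode_6591 in the spleen of NSG mouse 13. In the spleen of NSG mouse 14 the same barcode reached 14.7 deposited CPM, and in the other 14 libraries no member exceeded 0.553 deposited CPM. A clone is called surviving here at or over 100 GFP CPM. In recipients of LSK cells alone nearly all reads are GFP reads and the scales coincide, whereas in mixed recipients 100 GFP CPM stands for 32.4 to 79.6 deposited CPM. Single reads lie within the background. The GFP label held in the pools, where 2 of the 459 barcodes had reads in the GMP pool, at no more than 0.206 CPM. Of the 29 libraries, 3 stood apart by reads of mCherry barcodes or of barcodes absent from the pools (bone marrow of mouse 12, spleens of mice 10 and 18), and the host comparisons below are also given without them. Host and deposited table coincide, so host and any difference in preparation cannot be told apart.

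The 459 clones together held 16.89% of the GFP reads of the LSK pool (95% Wilson interval 16.86 to 16.92). In the pool of mixed cells they held 17.61% of the GFP reads (17.56 to 17.66) and 8.91% of all reads. Each clone had at least 590 reads in the LSK pool and 51 in the mixed pool. The ratio of its mixed-pool to its LSK-pool level had a median of 1.03 and ranged from 0.228 to 2.08, with 405 of 459 clones within 1.5-fold. Across clones the log2 levels of the pools had a Pearson r of 0.927, a description only, since each pool is 1 sample. The mice that received LSK cells alone and those that received the mixture thus started from nearly the same relative levels of these clones.

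In the mice the set held a small part of its pool share. In Ptprca recipients of LSK cells the clones summed to 1.86%, 1.31% and 1.99% of GFP reads in mice 1, 2 and 3. In the NSG counterparts, mice 9 to 12, they summed to 0.198%, 0.382%, 0.731% and 0.911%. Every NSG value lay below every Ptprca value. Against their pool the summed share was 8.48- to 12.9-fold lower in these Ptprca mice and 18.6- to 85.4-fold lower in the NSG mice. In mixed recipients it was 2.17%, 1.51%, 0.956% and 2.58% in Ptprca mice 17 to 20, and 0.238%, 0.293%, 0.0319% and 1.49% in NSG mice 21 to 24. Here the hosts overlapped through mouse 24, in which GFP_Barcode_31917 alone made up 78.0% of the clones' reads. These are shares of a fixed total, so they also fall when other clones of the same mouse grow. The ceiling left out clones that grew, so part of the fall against the pool is set by the rule. The 10 GFP barcodes of the same pool range past it held 0.401% of the GFP reads of the LSK pool. Their means ran from 30.3 to 42518 CPM in Ptprca and from 3.26 to 15154 CPM in NSG recipients of LSK cells. How far the whole pool range fell is therefore not shown by these shares.

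Few of the clones survived in any mouse. At or over 100 CPM were 29, 24 and 33 of 459 clones in Ptprca mice 1, 2 and 3, a mean of 28.7 ± 4.51 (SD, n = 3), or 6.25%. NSG mice 9 to 12 had 4, 8, 9 and 10 such clones, a mean of 7.75 ± 2.63 (SD, n = 4), or 1.69%. In mixed recipients the counts were 19, 21, 23 and 33 in Ptprca mice 17 to 20 (24 ± 6.22, SD, n = 4) and 5, 6, 1 and 5 in NSG mice 21 to 24 (4.25 ± 2.22, SD, n = 4). The ranges of the hosts did not overlap with or without GMP cells, and the Ptprca mean was 3.70 times the NSG mean with LSK cells alone and 5.65 times in the mixture. This host difference was not particular to the low clones. Among the 191 GFP clones at or over 1000 pool CPM under the same ceiling, a mean of 26.5% per Ptprca mouse reached 100 CPM with LSK cells alone. The NSG mean was 5.63%. With GMP cells added, these means were 23.3% (Ptprca) and 3.01% (NSG), and the hosts again did not overlap. In counts of the 459 clones at 100 CPM, recipients of the mixture and of LSK cells alone overlapped within each host. At 10 CPM they overlapped in NSG but not in Ptprca mice, with 66, 70 and 92 clones in mice 1 to 3 and 59, 52, 50 and 59 in mice 17 to 20. Clones with any read numbered 122 to 151 and 80 to 105 in these Ptprca mice, whose mixed libraries hold fewer GFP reads. This was not particular to the low clones. Of the 191 higher clones, 86, 78 and 96 reached 10 CPM in mice 1 to 3 and 72, 68, 69 and 76 in mice 17 to 20. With any read they numbered 119 to 162 and 93 to 104. No p-value is given for these counts, because the clones were chosen with earlier results of these data known. The order of hosts held at 10 CPM (76 against 16 clones with LSK cells alone, 55 against 10.5 in the mixture) and at 1000 CPM (3.33 against 1.25, and 4.25 against 1), although at 1000 CPM the mice of the hosts overlapped.

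At the fixed limit of 100 CPM, survival was highest in the uppermost class of the pool range. A clone of low pool level must keep more of it to reach that limit, so a rise with pool level is partly built in. Relative to pool, the summed level was no higher in the uppermost than in the lowest class. It was 0.137 against 0.152 in Ptprca and 0.014 against 0.0572 in NSG recipients of LSK cells. In mixed recipients it was 0.0781 against 0.223 in Ptprca and 0.0114 against 0.174 in NSG mice. The value of 0.174 includes 11610 CPM of GFP_Barcode_31917 in the single library of mouse 24, and the class at 200 to 400 pool CPM had 0.00945 in these mice. The fixed ceiling of 10000 CPM also allows a larger ratio to pool in the lowest class than in the uppermost. These ratios therefore cannot decide whether the classes differ in growth. In Ptprca recipients of LSK cells, 4.02% ± 1.48 of the 141 clones at 100 to 200 pool CPM reached 100 CPM per mouse. The share was 5.73% ± 2.21 of the 157 clones at 200 to 400, 6.76% ± 3.02 of 69 at 400 to 600, 6.67% ± 2.89 of 60 at 600 to 800 and 16.7% ± 1.80 of 32 at 800 to 1000 pool CPM (SD, n = 3). In these mice the uppermost class alone stood outside the spread of the others. In Ptprca mixed recipients the share was 11.7% ± 3.93 in that class and 7.92% ± 2.85 at 600 to 800 pool CPM (SD, n = 4), which overlap. In NSG mice given LSK cells these shares were 4.69% ± 1.80 and 3.33% ± 2.72 (SD, n = 4), which overlap too. The 191 LSK clones at or over 1000 pool CPM under the same ceiling, the nearest comparison, reached 100 CPM in 26.5% ± 4.72 of cases in the same mice (SD, n = 3). In those mice 2.32% ± 0.982 of the low clones and 2.09% ± 0.524 of the higher ones exceeded their own pool level, which differed by less than the spread between mice. The shares above pool were, in NSG mice given LSK cells, 0.871% ± 0.398 and 0.524% ± 0.427 (SD, n = 4). The ceiling of 10000 CPM limits the shares above pool in both sets. The higher clones held up to 25521 GFP CPM of the LSK pool, and any over the ceiling there could not exceed its pool level. The shares above pool therefore cannot decide whether low and higher clones differ in gains.

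Gains over the pool were thus rare among the clones kept, but the ceiling bounds both their number and their size. It left out 10 GFP barcodes of the same pool range, each of which far exceeded its pool level in at least 1 library. How rare gains were in the whole pool range is therefore not shown by these counts. Kept clones above their pool level numbered 11, 6 and 15 in Ptprca mice 1 to 3 and 2, 3, 5 and 6 in NSG mice 9 to 12. In the mixture they numbered 11, 11, 8 and 19 in Ptprca mice 17 to 20 and 2, 3, 1 and 2 in NSG mice 21 to 24. A gain of more than 10-fold occurred in no more than 3 of the kept clones in any mouse. By the mean ratio to pool over the 15 recipients, the leading clones were GFP_Barcode_31917 at 6.03, GFP_Barcode_81008 at 2.59, GFP_Barcode_40036 at 2.47, GFP_Barcode_62077 at 1.95 and GFP_Barcode_6591 at 1.94. Each of these means rested on a few mice, as their values show.

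GFP_Barcode_31917 (197 CPM in the LSK pool and 161 GFP CPM in the mixed pool) held 183, 22.9 and 297 CPM in Ptprca mice 1 to 3 and 0, 249, 356 and 1028 CPM in NSG mice 9 to 12. In the mixture it held 244, 336, 154 and 134 CPM in Ptprca mice 17 to 20, and 63.1, 65.2, 170 and 11610 CPM in NSG mice 21 to 24. Against the pool that each mouse received, it exceeded its pool level in 8 of 15 mice and reached 100 CPM in 11. The highest value, 72.3 times its mixed-pool level, came from the single spleen library of mouse 24 and accounts for most of its mean.

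GFP_Barcode_81008 and GFP_Barcode_40036 exceeded 300 CPM in the same 4 mice. The first held 2.05, 54.7 and 459 CPM in Ptprca mice 1 to 3 and 6301, 92.7, 686 and 548 CPM in Ptprca mice 17 to 20. The second held 0.396, 59.0 and 337 CPM in mice 1 to 3 and 4190, 41.4, 428 and 332 CPM in mice 17 to 20. In the NSG mixed recipients both were at 0.552 CPM or less. In NSG mice 9 to 12 GFP_Barcode_81008 held 0, 133, 11.6 and 60.7 CPM and GFP_Barcode_40036 held 0, 70.8, 4.34 and 43.4 CPM.

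Such joint movement was not limited to this pair. Over the 29 libraries, 174 GFP clones, 60 of them members, reached 100 CPM in at least 2 libraries. The Pearson r of log2(GFP CPM + 10) over the libraries was computed for the 8610 pairs that include a member and had a median of 0.292. In 10 pairs it was 0.973 to 0.991, and in no other pair above 0.921. Among the 6441 pairs of GFP clones that are no members 9 also reached an r of 0.95. In 7 of the 10 pairs both barcodes were members, and in 3 the partner was a GFP clone with more than 1000 pool CPM. This comparison was made after the values were seen, and libraries of 1 mouse share their source, so the r is a description without a p. Within the 14 libraries of LSK recipients the lowest r of the 10 pairs was 0.963. Within the 15 libraries of mixed recipients it was 0.699, for GFP_Barcode_44083 with GFP_Barcode_75424, which were both under 10 CPM in all 8 mice.

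The ratio within a pair varied less than the levels did. GFP_Barcode_11863 and its partner GFP_Barcode_102032 held 2437 and 2371 CPM in mouse 1, 167 and 205 CPM in mouse 10 and 292 and 236 CPM in mouse 24. Their median ratio was 0.968 over the 28 libraries in which both reached 10 CPM, against 0.934 in the LSK pool, and ranged from 0.582 to 2.14. GFP_Barcode_29960 and GFP_Barcode_63147 likewise had a median ratio of 0.986 over 14 libraries (0.756 in the pool), and GFP_Barcode_12360 and GFP_Barcode_52450 one of 0.394 over 22 libraries (0.365 in the pool). Of the 10 pairs, 8 had a median ratio within 1.5-fold of the pool ratio. The exceptions were GFP_Barcode_58882 with GFP_Barcode_71908 (1.82 against 1.09 in the pool) and GFP_Barcode_4247 with GFP_Barcode_6591. The latter had a ratio of 0.247 over 20 libraries although GFP_Barcode_4247 was the larger in the pool, at 1.67 times its partner. The remaining pairs were GFP_Barcode_54633 with GFP_Barcode_8218, GFP_Barcode_1721 with GFP_Barcode_36548 and GFP_Barcode_10434 with GFP_Barcode_29139.

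Barcodes that move together may not be separate clones, and whether the barcodes of a pair mark the same founder cell was not tested. With each of the 7 pairs counted once, 83 rather than 90 clones reached 100 CPM in a mouse. The mean count of surviving clones was then 26 per Ptprca mouse and 7 per NSG mouse given LSK cells, and 22.3 and 4 in the mixed recipients.

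Survival recurred between mice in a minority of the clones. No read was found in any of the 15 recipients for 185 of the 459 clones, and 369 never reached 100 CPM in a mouse. Of the 90 that did, 41 reached it in 1 mouse and 49 in at least 2. Within Ptprca recipients of LSK cells, 58 clones reached 100 CPM, 34 of them in 1 of the 3 mice, 20 in 2 and 4 in all 3. In Ptprca mixed recipients it was also 58 clones, with 34 in 1 of the 4 mice, 14 in 2, 6 in 3 and 4 in all 4. NSG recipients of LSK cells had 17 such clones, 9 of them in 1 mouse and 2 in all 4. NSG mixed recipients had 12, of which 8 were in 1 mouse and none in all 4.

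The clones that survived in NSG mice were mostly among those that survived in Ptprca mice. Over all mice of a host 84 clones reached 100 CPM in Ptprca and 22 in NSG recipients, and 16 did so in both, 19.05% of the Ptprca and 72.7% of the NSG clones. Recipients of LSK cells alone and of the mixture had 62 clones each and shared 34, 54.8% of either. Between the Ptprca groups 32 of 58 clones were shared, and between the NSG groups 7, which is 41.2% of the 17 and 58.3% of the 12. Of the 459 clones, 6 reached 100 CPM in all 4 groups, namely GFP_Barcode_11863, GFP_Barcode_1349, GFP_Barcode_31917, GFP_Barcode_4247, GFP_Barcode_6591 and GFP_Barcode_7280. Another 6 did so in NSG but no Ptprca mouse, namely GFP_Barcode_12662, GFP_Barcode_24139, GFP_Barcode_27123, GFP_Barcode_53056, GFP_Barcode_550 and GFP_Barcode_67083. Most of the names in these lists were chosen after their values were seen.

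GFP_Barcode_11863 was the most regular survivor, at or over 100 CPM in 14 of 15 mice. From 970 CPM in the LSK pool it went to 2437, 1560 and 1371 CPM in Ptprca mice 1 to 3 and to 378, 167, 414 and 307 CPM in NSG mice 9 to 12. In the mixture it held 1844, 1947, 701 and 792 CPM in Ptprca mice and 497, 359, 16.2 and 292 CPM in NSG mice. All Ptprca values lay above all NSG values. It exceeded its pool level in 5 mice, all of them Ptprca.

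By the mean of both tissues, the leading low clone mostly differed from mouse to mouse in Ptprca recipients. In spleen alone the leader recurred, as GFP_Barcode_11863 led in mice 1, 3, 17, 18 and 19. The values that follow are means of both tissues. GFP_Barcode_15061 held 4310 CPM in Ptprca mouse 1 against 401 and 68.3 CPM in mice 2 and 3. GFP_Barcode_7280 held 3969 CPM in mouse 2 against 18 and 453 CPM in mice 1 and 3, and GFP_Barcode_8742 held 3101 CPM in mouse 3 against 203 and 0 CPM in mice 1 and 2. Each mouse of this group was led by a different low clone, although GFP_Barcode_7280 also led NSG mice 9 and 21. In the mixture GFP_Barcode_7845 led mouse 18 at 3204 CPM, against 16.3, 262 and 115 CPM in mice 17, 19 and 20. GFP_Barcode_90808 led mouse 20 at 3812 CPM and held at most 3.91 CPM in the other mixed Ptprca mice.

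Among NSG mice given LSK cells the leader by the mean of both tissues recurred. By tissue GFP_Barcode_6591 led the bone marrow of mice 11 and 12 and the spleen of mice 10 and 12, and other clones led the remaining libraries. GFP_Barcode_6591 held 327, 898, 4109 and 3068 CPM in mice 9 to 12, and led 3 of the 4. Its partner GFP_Barcode_4247 held 66.7, 230, 951 and 767 CPM there. By mean level GFP_Barcode_31917 came next after these, and then GFP_Barcode_7606, with 1460 CPM in mouse 12 and at most 57.2 CPM in the others. In the NSG mixed recipients GFP_Barcode_6591 led mouse 22 at 1381 CPM, GFP_Barcode_7280 led mouse 21 at 1070 CPM, and GFP_Barcode_15879 reached 2306 CPM in mouse 24 against 2.76 CPM or less in the other 3. Mice 23 and 24 were led by GFP_Barcode_31917. GFP_Barcode_6591 is also the barcode with the highest background in GMP-only mice, at 32.3 deposited CPM.

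Some clones appeared in a single mouse of their group with no read in the others. GFP_Barcode_70999 held 700 CPM and GFP_Barcode_18469 376 CPM in Ptprca mouse 3, and neither had a read in any other of the 15 recipients. GFP_Barcode_40570 held 359 CPM in Ptprca mouse 1, and otherwise at most 0.240 CPM in the NSG recipients of LSK cells. GFP_Barcode_550 held 1224 CPM in NSG mouse 12. GFP_Barcode_7023, GFP_Barcode_11169 and GFP_Barcode_3022 held 1889, 383 and 165 CPM in Ptprca mouse 20. NSG mixed recipients had no such clone. Of these 7 clones GFP_Barcode_11169 alone reached 100 CPM outside its group, at 213 CPM in Ptprca mouse 1. It held 84.4 CPM in NSG mouse 24.

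Single clones were compared between hosts with limma, fitted to all GFP clones whose mean over the compared mice was at least 100 CPM and adjusted by Benjamini-Hochberg over all of them. With LSK cells alone 103 GFP clones were tested and 53.4% were called at an adjusted p under 0.05, 50.5% as higher in Ptprca and 2.91% as higher in NSG mice. Only 24 of the 459 members passed this minimum, and 11 of them had an NSG mean of at least 100 CPM, so that the others had to differ and their count is no support for a difference. Of the 24, 9 were higher in Ptprca and none lower, a smaller share than among all tested clones, and their median difference was 3.16 log2 against 3.26 for all. With each mouse centred on its median tested clone, which subtracts 1 amount from the difference of every clone, no member was called higher in Ptprca and 5 were called lower, namely GFP_Barcode_14854, GFP_Barcode_31917, GFP_Barcode_4247, GFP_Barcode_550 and GFP_Barcode_6591. Of these 5, GFP_Barcode_4247 and GFP_Barcode_550 had Ptprca means of 62.6 and 0.420 CPM. They entered the test only through the NSG group, so their calls are no support for a difference. edgeR with TMM scaling called 4 members, 3 higher and 1 lower in Ptprca mice. Without the libraries that stand apart limma called 10.

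Of the 9 called members, GFP_Barcode_11863 alone had a mean of at least 100 CPM in both hosts, and its values given above did not overlap between them (2.49 log2, SE 0.79, limma adjusted p = 0.0246). The other 8 entered the test only through the Ptprca group, so their p-values are no support for a difference and are given as a description. The largest difference was that of GFP_Barcode_62077, which held 2115, 414 and 609 CPM in Ptprca mice 1 to 3 and 0, 0, 0 and 17.6 CPM in NSG mice 9 to 12. The groups did not overlap, and limma gave a log2 difference of 6.00 (SE 0.86, adjusted p = 0.000963), which with centring on the median clone kept its sign (1.43 log2) but not its call. edgeR did not call it either. GFP_Barcode_29139 held 776, 39.6 and 508 CPM against at most 1.45 CPM (4.71 log2, SE 1.07, limma adjusted p = 0.00595). GFP_Barcode_1349 held 272, 219 and 2485 CPM against 0, 9.59, 171 and 0 CPM (4.48 log2, SE 1.30, limma adjusted p = 0.0185), and GFP_Barcode_8115 held 47.5, 471 and 446 CPM against at most 6.51 CPM (4.33 log2, SE 0.98, limma adjusted p = 0.00595). With centring none of these was called, and the sign of GFP_Barcode_1349 (-0.085 log2) and GFP_Barcode_8115 (-0.23 log2) turned, as the subtraction common to all clones exceeded their difference. edgeR with TMM called none of GFP_Barcode_29139, GFP_Barcode_1349 and GFP_Barcode_8115, and without TMM it called GFP_Barcode_29139 only. The call of GFP_Barcode_1349 was lost without Ptprca mouse 3. GFP_Barcode_6591 and GFP_Barcode_4247 were higher in NSG mice on average (log2 differences of -2.94 and -2.72) but missed the limma threshold at adjusted p = 0.0626 and 0.0694. Both are barcodes of 1 pair. GFP_Barcode_4247 had a Ptprca mean of 62.6 CPM and entered the test only through the NSG group, so its p is a description. GFP_Barcode_29139 and GFP_Barcode_10434 are barcodes of 1 pair and were both among the 9, so the calls comprise 8 distinct patterns.

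In mixed recipients 112 GFP clones were tested and 53.6% were called, 50.9% as higher in Ptprca and 2.68% as higher in NSG mice. Again 24 members passed the minimum, 5 of them with an NSG mean of at least 100 CPM. Of the 24, 7 were higher in Ptprca and none lower, with a median of 2.57 log2 against 3.13 for all tested clones. Without the libraries that stand apart the count was again 7. With centring none was higher and 3 were lower, namely GFP_Barcode_31917, GFP_Barcode_6591 and GFP_Barcode_7280. Of these 3, GFP_Barcode_7280 had a Ptprca mean of 60.2 CPM and entered the test only through the NSG group. Its call with centring is therefore no support. The 7 called without centring were all higher in Ptprca. All 7 entered the test only through the Ptprca group, and none of the 5 with an NSG mean of at least 100 CPM was called, so the p-values that follow are a description and no support. GFP_Barcode_81008 had the largest difference at 6.11 log2 (SE 1.14, limma adjusted p = 0.000816), and its partner GFP_Barcode_40036 had 5.37 (SE 1.16, limma adjusted p = 0.00154). GFP_Barcode_12360 held 2637, 1367, 673 and 1641 CPM in Ptprca mice 17 to 20 and 40.3, 6.95, 0 and 37.4 CPM in NSG mice 21 to 24 (5.82 log2, SE 1.12, limma adjusted p = 0.000824). GFP_Barcode_29960 held 111, 416, 165 and 1715 CPM against at most 2.90 CPM (5.05 log2, SE 0.97, limma adjusted p = 0.000824). For all 4 the mice of the hosts did not overlap. With centring all 4 lost the call, and the differences of GFP_Barcode_40036 and GFP_Barcode_29960, less the subtraction common to all clones, were -0.072 and -0.39 log2. GFP_Barcode_12360 also lost its call with edgeR (with or without TMM) and in spleen alone, and GFP_Barcode_29960 with edgeR and TMM.

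The mixed recipients address whether low LSK clones fare differently beside GMP cells. GFP reads made up 50.6% of the mixed pool, and the number of cells given to each mouse is not given in the sources used here. The presence of GMP cells and any difference in the number of LSK cells cannot be told apart. In Ptprca mice none of 143 tested GFP clones was called by limma (0%), and 14 had an unadjusted p under 0.05. Among the 39 members tested 3 had such a p, and edgeR with and without TMM also called none. The members' median difference, mixed minus LSK, was 0.64 log2 against -0.34 for all tested clones. GFP_Barcode_62077 came closest, with 2115, 414 and 609 CPM in recipients of LSK cells alone and 1.31, 0, 2.10 and 42.8 CPM in the mixture (-5.65 log2, SE 1.41, limma adjusted p = 0.0779). These mice did not overlap, but the clone entered the test only through the recipients of LSK cells alone, so its p is a description. In the other direction GFP_Barcode_81008 had 3.31 log2 (SE 1.57, limma adjusted p = 0.465). Without mouse 20, 1 member was called lower in the mixture.

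In NSG mice none of 50 tested GFP clones was called (0%), and 6 had an unadjusted p under 0.05. The 10 members tested included no such p, edgeR called none, and their median was -1.88 log2 against -0.95 for all. GFP_Barcode_6591, which led 3 of the 4 NSG mice given LSK cells alone, held 327 to 4109 CPM with LSK cells alone and 56.7 to 1381 CPM in the mixture, and these ranges overlapped. In each host the difference between recipients of LSK cells alone and of the mixture was thus not detectable for single low clones with 3 or 4 mice per group.

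Bone marrow and spleen differed for the low clones of Ptprca mice. At or over 100 CPM in bone marrow were 31, 25 and 30 clones in mice 1 to 3, against 9, 10 and 15 in spleen. In the mixture bone marrow had 24, 26, 23 and 33 clones in mice 17 to 20, against 11, 10, 12 and 11 in spleen. The tissues did not overlap in either group. The clones' summed share was 3.14%, 1.63% and 3.10% of bone marrow and 0.591%, 1.0% and 0.889% of spleen GFP reads in mice 1 to 3. In NSG recipients of LSK cells bone marrow had 3, 5, 6 and 8 clones in mice 9 to 12 and spleen had 4, 4, 6 and 9, so the tissues overlapped there. The NSG mixed recipients with both tissues had 5, 5 and 0 clones in bone marrow and 4, 6 and 1 in spleen. Such counts by tissue were not made for other GFP clones. In the test by clone given below, the median difference of all tested GFP clones also leaned to bone marrow in Ptprca mice. It was 1.82 log2 with LSK cells alone (members 1.37) and 1.71 log2 in the mixture (members 1.74). The leaning is thus not shown to be particular to the low clones.

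Survival was often confined to 1 tissue at this threshold. Over Ptprca mice 1 to 3, 70 occurrences reached 100 CPM in bone marrow only, 18 in spleen only and 16 in both. In Ptprca mixed recipients the counts were 78, 16 and 28, in NSG mice 9 to 12 they were 13, 14 and 9, and in NSG mixed recipients 6, 7 and 4. Most of these were present in the other tissue below 100 CPM. Of the 70 in bone marrow only, 6 had no read in the spleen, and of the 78, 14 had none.

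Tested clone by clone with the mouse as a block, 134 GFP clones of Ptprca recipients of LSK cells were compared and 23.1% were called, 20.1% as higher in bone marrow and 2.99% as higher in spleen. Of the 40 members tested 2 were called, both higher in bone marrow, a smaller share than among all clones. Their median difference was 1.37 log2 against 1.82 for all. GFP_Barcode_62077 held 4199, 706 and 1161 CPM in the bone marrow of mice 1 to 3 against 30.9, 122 and 56.7 CPM in spleen (4.42 log2, SE 1.28, limma adjusted p = 0.00548). GFP_Barcode_1349 held 451, 438 and 4645 CPM against 92.7, 0.365 and 326 CPM (3.80 log2, SE 1.34, limma adjusted p = 0.0266). Bone marrow exceeded spleen in 3 of 3 mice for both. GFP_Barcode_62077 had a spleen mean under 100 CPM and entered the test only through bone marrow, so its p is a description. Neither call held with edgeR, without eBayes trend, at a minimum of 10 CPM, with no minimum, or without mouse 1 or 2. The call of GFP_Barcode_1349 was also lost without mouse 3 and with a pseudocount of 100 CPM, so it did not survive leaving out any 1 mouse. Centring on the median clone left neither called and instead called GFP_Barcode_11863 and GFP_Barcode_31917 as lower in bone marrow. GFP_Barcode_31917 had a bone marrow mean of 16.1 CPM and entered the test only through spleen, so its call is no support.

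In Ptprca mixed recipients 131 clones were tested and 6.11% were called, 5.34% as higher in bone marrow and 0.763% as higher in spleen. No member of 33 was called by limma or edgeR, and 4 had an unadjusted p under 0.05. Their median was 1.74 log2, close to 1.71 for all clones, and the difference was above 0 for 31 of the 33. Only 9 of the 33 had a spleen mean of at least 100 CPM. The others entered the test only through bone marrow, so the count above 0 is no support for a difference. With centring, which subtracts 1 amount from every clone, the members' median was -0.98 log2 and that of all clones -1.01. GFP_Barcode_12360 had 5142, 2689, 1157 and 1048 CPM in the bone marrow of mice 17 to 20 against 131, 44.9, 189 and 2235 CPM in spleen (3.07 log2, SE 1.17, limma adjusted p = 0.0847). Mouse 20 thus went the other way. Without mouse 17 or without mouse 20, 1 member was called.

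In NSG recipients of LSK cells none of 55 clones was called (0%) by limma, and no member by edgeR. Of the 12 members tested 2 had an unadjusted p under 0.05. Both of these were higher in spleen, and both had a bone marrow mean under 100 CPM. They entered the test only through spleen, so their direction and p are a description. GFP_Barcode_7606 held 0, 0, 0.780 and 17 CPM in the bone marrow of mice 9 to 12 against 0.166, 75.4, 114 and 2903 CPM in spleen (-3.35 log2, SE 1.52, limma adjusted p = 0.655). GFP_Barcode_15061 held 0, 6.12, 61.6 and 1.25 CPM in bone marrow against 54.1, 1705, 495 and 0 CPM in spleen. Both had a higher spleen value in at least 3 of 4 mice. In NSG mixed recipients none of 38 clones was called (0%), 1 had an unadjusted p under 0.05, and none of the 4 members tested did.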

How the data were processed

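Barcodes were amplified from genomic DNA of bone marrow, spleen and cell pools. Per the labels' protocols the extraction was a droplet-based single-cell one, which differs from the stated genomic DNA. The deposited values are CPM, which the authors had filtered and collapsed over PCR duplicates, per the file names. Bowtie 1.2.2 and R 3.6 were used, per the submitters' processing notes. The way duplicates were collapsed is not given in the sources used here. Every column sums to 1000000, and 100% of values were whole multiples of the smallest one within 0.01. An absent barcode was taken as 0. PCR reads are not independent molecules, so intervals cover counting error only.

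CPM were rescaled to GFP reads and averaged over tissues per mouse, the unit of replication. limma 3.58.1 (R 4.3.3; lmFit, eBayes with trend, two-sided) used log2(GFP CPM + 10), with a minimum mean of 100 CPM and a threshold of 0.05 for the adjusted p; a fold on this scale understates changes of low clones. Bone marrow and spleen were paired by the labelled mouse. edgeR 4.0.16 on recovered reads was an alternative. Scripts were tested on simulated data.

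Members, lists and tests were chosen with earlier results of these data known. Named clones were the 8 highest of each recipient group, up to 4 called per direction and comparison, up to 3 found in 1 mouse of a group, 2 on either side of each limit and the 5 highest over pool. Others were chosen after their values were seen, as were the pairs of barcodes.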

Additional observations from a re-analysis of the deposited data

Results flagged for a closer look

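Of 51 sets of 4 mice tested for a single far value (Dixon's test at 95%), 6 were met. The test flags about 1 in 20 by chance in sets that were not selected. Clones entered here by a high mean or a high ratio to pool, which 1 mouse can give. The 6 therefore cannot be read against that rate. GFP_Barcode_550 stood apart in NSG mouse 12 at 1224 CPM, and GFP_Barcode_90808 in Ptprca mixed mouse 20 at 3812 CPM. GFP_Barcode_7845 stood apart in NSG mouse 10 at 598 CPM. GFP_Barcode_15879 did so in NSG mouse 9 at 312 CPM and again in NSG mixed mouse 24 at 2306 CPM, although in Ptprca mixed recipients it held 88.4, 401, 469 and 663 CPM without such a gap. GFP_Barcode_67083 stood apart in NSG mixed mouse 22 at 260 CPM.

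In mice that received GMP cells only, GFP_Barcode_6591 reached 32.3 deposited CPM in the spleen of NSG mouse 13 and 14.7 deposited CPM in that of NSG mouse 14, a signal outside the main comparisons. The source of these reads was not tested.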

How the results depend on the processing

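Counts of called members were 9 and 7 for the host differences with LSK cells alone and in the mixture. They were 22 and 11 at a minimum of 10 CPM, 5 and 3 with centring (all lower in Ptprca), 4 and 4 with edgeR and TMM, and 2 and 1 in spleen alone. In the mixture a pseudocount of 100 CPM gave 4 and edgeR without TMM 12. Leaving out 1 mouse gave 6 to 12 and 7 to 9. With centring the log2 difference was -0.085 for GFP_Barcode_1349 and -0.23 for GFP_Barcode_8115 with LSK cells alone, and -0.072 for GFP_Barcode_40036 and -0.39 for GFP_Barcode_29960 in the mixture. Centring subtracts 1 amount from every clone of a comparison, which by its construction sets these signs.

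Deposited CPM, which are lower where GMP reads are present, called 2 members lower in mixed than in LSK Ptprca recipients, and leaving out 1 mouse gave 0 to 1. For bone marrow against spleen in Ptprca recipients of LSK cells, 2 calls became 1 with a pseudocount of 100 CPM and 0 with a minimum of 10 CPM, no minimum, no trend or edgeR (with or without TMM), and 0 to 2 with 1 mouse left out. The mixed Ptprca mice gave 0 to 1. Without the replicate block the calls were 2 in Ptprca recipients of LSK cells and 0 in the other groups.

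Surviving clones per mouse, in the order Ptprca LSK, NSG LSK, Ptprca mixed and NSG mixed, were 76, 16, 55 and 10.5 at 10 CPM, 139, 52.3, 92.5 and 27.3 with any read, and 3.33, 1.25, 4.25 and 1 at 1000 CPM. Spleen alone gave 11.3 and 11 for the Ptprca groups, and deposited CPM 13.8 for the mixed one. Leaving out 1 mouse gave 26.5 to 31, 7 to 9, 21 to 25.7 and 3.67 to 5.33. Barcodes of a pair counted once, added after seeing the data, changed no count by over 1.5 times. With 3 or 4 mice a group, differences of single low clones are detectable only when large.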

Other observations

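The same rule applied to the GMP library gave 381 mCherry barcodes at 100 to 1000 CPM of the GMP pool and under the ceiling in every library of GMP and mixed recipients. Per mouse, 4.0% ± 0.867 of them reached 100 CPM of mCherry reads in Ptprca and 0.787% ± 0.371 in NSG recipients of GMP cells (SD, n = 4 each). In mixed recipients the shares were 2.30% ± 0.582 in Ptprca and 0.525% ± 0.567 in NSG mice. The low LSK clones of the same mixed mice had 5.23% ± 1.35 and 0.926% ± 0.483. The difference between the libraries was not tested.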
